A study of Sus scrofa with 2 samples.

Results

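miR-423 and miR-378 are conserved microRNAs (miRNAs) of about 22 nt that were read here in small RNA libraries from pig oocytes. The members were selected on knockdown to control ratios seen earlier in these same libraries, so those ratios are given as a description and carry no test. They were found by sequence. A read of 18 to 26 nt counted as a member when it held nt 2 to 18 of miR-423-5p, miR-423-3p or miR-378-3p without mismatch and started within 2 nt of the mature 5' end. The arm of the precursor hairpin that an RNA comes from is written 5p or 3p. The 3 arms took 13143 reads of 176 distinct sequences, out of 1572193 reads and 3332 distinct sequences that matched any of 207 miRNA entries searched by the same rule.

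The oocytes were matured in vitro for 42 h to metaphase II, the stage of fertilisation. There was 1 library labelled control and 1 labelled Dicer KD, the latter from oocytes that had received siRNA against Dicer while at the germinal vesicle (GV) stage. The same treatment text stands on both samples, and the labels do not say what the control oocytes received or how many oocytes were pooled. With 1 library per group every ratio below compares these libraries and not the conditions, and no p-value can be given. The control library held 11836160 reads and the knockdown library 11982925. The intervals given hold at the 95% level for counting error alone, since PCR copies without molecular identifiers are not independent molecules. Levels are relative to all reads of a library. A higher level can thus come from more of an RNA or from less of the others, which cannot be told apart. Nor do the levels tell the number of pooled cells from the RNA per cell. The Dicer transcript and the messenger RNAs that mark oocytes were not measured by these small RNA tables.

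Dicer cuts the precursor hairpin into a short duplex, and an Argonaute protein keeps one strand of it and usually discards the other. The kept strand finds its targets through the seed, bases 2 to 8 from its 5' end, so a read that starts 1 base earlier or later carries another seed. The 3' end is less fixed. It can be cut later, trimmed by exonucleases, or lengthened by enzymes that add single A or U residues. Both arms of miR-423 are commonly detected in mammalian tissues, and miR-378 is best known from muscle and from energy metabolism. In RefSeq's pig annotation (Sscrofa11.1, used for names only) there is 1 miR-423 gene, which overlaps NSRP1, a gene for a splicing regulator. The annotation names 3 miR-378 genes. One overlaps PPARGC1B, a coactivator gene of mitochondrial metabolism, and the others overlap BCAS3 and RGS3. Reads of these genes that share nt 2 to 18 cannot be told apart.

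The 5 sequences printed next are the ones that set the identity of the arms. They are the most abundant full-length read of each arm and the main read with a shifted start of each 3p arm. All were read from the deposited tables, which write U as T, and capitals mark bases 2 to 8 of each read.
miR-423-5p: tGAGGGGCagagagcgagacttt
miR-423-3p: aGCTCGGTctgaggcccctcagt
miR-423-3p with 1 more base at the 5' end: aAGCTCGGtctgaggcccctcagt
miR-378-3p: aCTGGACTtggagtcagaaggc
miR-378-3p without its first base: cTGGACTTggagtcagaaggc

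The 3 arms share no seed, and the shifted reads of both 3p arms carry a seed that differs from that of the main read. The full-length reads are 23, 23 and 22 nt long and hold 56.5%, 65.2% and 54.5% G and C. miR-423-5p starts with T (U in the RNA), whereas miR-423-3p and miR-378-3p start with A.

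All 3 arms were more abundant in the knockdown library. miR-423-5p had 2707 reads in control oocytes and 8194 after knockdown, or 229 and 684 RPM (reads of an item per 1000000 reads of its library). Its ratio of knockdown to control was 2.99 (exact conditional interval 2.86 to 3.12). miR-423-3p, from the other side of the same hairpin, had 529 and 1354 reads, or 44.7 and 113 RPM, a ratio of 2.53 (2.28 to 2.80). miR-378-3p was the rarest, with 49 and 310 reads, or 4.14 and 25.9 RPM, and had the largest ratio of the 3, at 6.25 (4.61 to 8.63).

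**Figure D1:**
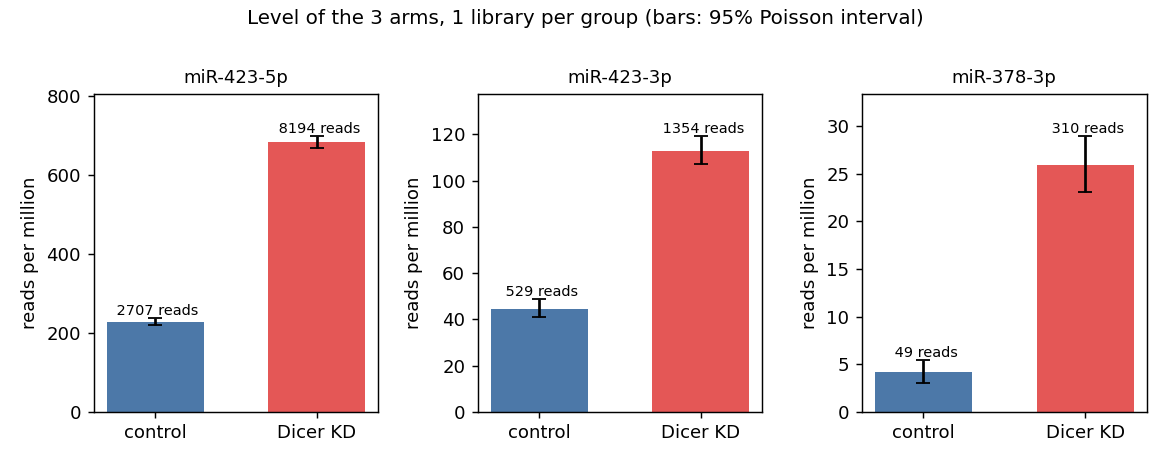
Level of each arm in RPM (vertical axes, which differ between panels) in the control and the Dicer KD library, with the read count above each bar and a 95% Poisson interval as the error line. Each group is 1 library. The knockdown bar is higher in all 3 panels, from 44.7 to 113 RPM for miR-423-3p and from 4.14 to 25.9 for miR-378-3p.

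Among the 76 miRNA entries with at least 100 reads, 18, or 23.7%, had a knockdown to control ratio of 2 or more, and the 3 arms are among these 18. With nt 2 to 20 matched, which drops its shortest reads, miR-423-3p was at a log2 ratio of 0.999, just under 2-fold, and 15 of 75 entries were higher. A ratio of 0.5 or less was found for 1 entry, miR-100, or 1.32%. Since the arms were chosen for this contrast, nothing is read from their count. The ratios ranked 2 (miR-378-3p), 7 (miR-423-5p) and 12 (miR-423-3p) from the highest, and the median ratio of the other 73 entries was 1.19. By level, miR-423-5p ranked 12 in the control and 7 after knockdown. miR-423-3p went from rank 31 to rank 21 and miR-378-3p from rank 70 to rank 42. The arms together were 0.423% of all miRNA reads of the control and 1.24% of those of the knockdown. Of the 10652 single sequences of 18 to 26 nt that reached 100 reads, 5.03% had a ratio of 2 or more and 6.1% a ratio of 0.5 or less. Of the 12 such sequences that belong to the 3 arms, 8 were higher by that rule and 1 was lower, and since the arms were chosen for this contrast nothing is read from these counts either.

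**Figure D2:**
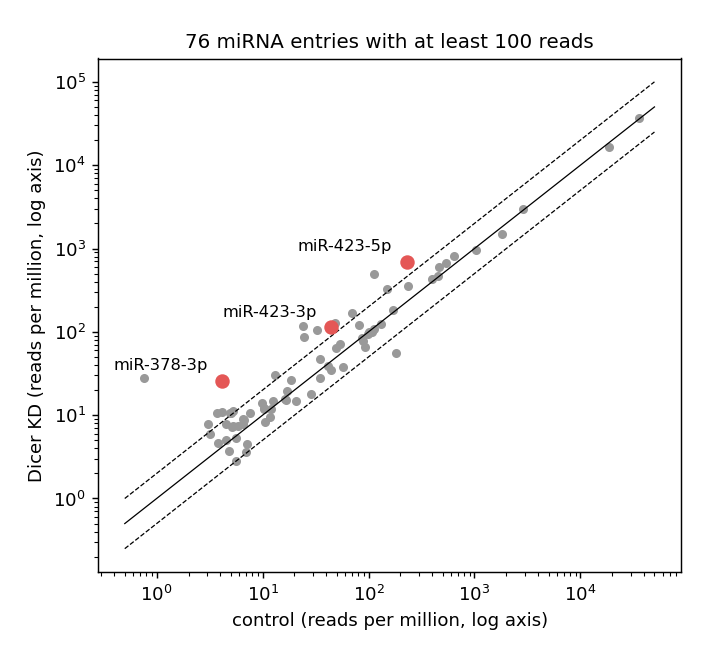
Each point is 1 of the 76 miRNA entries with at least 100 reads, placed by its level in the control library (horizontal, RPM, log axis) and in the Dicer KD library (vertical, log axis). The solid line marks equal levels and the dashed lines a 2-fold difference, and the 3 labelled arms lie above the upper dashed line with 15 other entries.

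The entries closest to miR-423-5p in log2 ratio, over these 2 libraries, were miR-99a with a ratio of 2.87 (2.03 to 4.15), miR-140-3p with 3.17 (2.83 to 3.57) and miR-25 with 2.66 (2.41 to 2.93). Those closest to miR-378-3p were miR-143-3p with 4.87 (4.29 to 5.55), miR-27a and miR-27b together with 4.45 (4.20 to 4.73) and miR-10a with 3.49 (3.06 to 3.98). These last entries all lay below miR-378-3p, at 6.25 (4.61 to 8.63), and the interval of miR-10a does not overlap that one. Likeness over a single pair of libraries says only that these ratios were the nearest found.

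miR-423 and miR-103 are often used to scale other miRNAs, so 8 such reference miRNAs were listed. Their summed level was 398 RPM in control and 476 RPM in knockdown oocytes. Of the 7 with at least 100 reads, 1 had a ratio of 2 or more and 0 had a ratio of 0.5 or less, with a median log2 ratio of -0.05 against 0.28 over all 76 entries. The higher one was the entry of miR-103 and miR-107, with a ratio of 2.37 (2.18 to 2.57). Also above 1 were miR-484, at 1.87 (1.25 to 2.85), and miR-361-5p, at 1.27 (0.919 to 1.76). miR-191-5p was at 0.966 (0.895 to 1.04), miR-26a at 0.943 (0.868 to 1.02), miR-93 at 0.917 (0.745 to 1.13) and miR-16 at 0.866 (0.792 to 0.947). The ratios of both miR-423 arms lay above those of the 7 reference entries with at least 100 reads. The interval of miR-423-3p, at 2.53 (2.28 to 2.80), overlaps that of miR-103 and miR-107. Since the arms were chosen for this contrast, nothing is read from this order.

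miR-378 is abundant in muscle, and 5 entries of muscle miRNAs were listed beside it. miR-1, miR-206 and miR-208b had 0 reads in both libraries, which allows up to 0.253 and 0.250 RPM (3 reads). miR-133a and miR-133b together had 0 control and 2 knockdown reads, and miR-499-5p had 20 and 15. The summed level of the muscle list was 1.69 RPM in control and 1.42 RPM in knockdown oocytes. In contrast, 6 of the 7 entries listed for stromal and vascular cells had reads, with miR-214 at 0, and their sum was 29.0 and 128 RPM. miR-143-3p held 286 and 1411 of those 343 and 1531 reads. The granulosa list summed to 472 and 608 RPM with all 5 members read, almost all of it miR-21-5p. Its rarer member miR-202-5p, a gonadal miRNA, had 6 and 32 reads, a ratio of 5.27 (2.17 to 15.4). The others of this list were mixed. miR-21-5p had a ratio of 1.29 (1.25 to 1.34) and miR-212 had 6 and 7 reads. Lower in the knockdown library was miR-383, with 47 and 27 reads, a ratio of 0.567 (0.340 to 0.930). miR-132 had 57 and 45 reads, a ratio of 0.780 (0.516 to 1.17), within counting error. The blood list summed to 35.6 and 51.0 RPM, with miR-144, miR-223 and miR-142-3p at 0. Of its 421 and 611 reads, 413 and 559 were miR-486, a ratio of 1.34 (1.18 to 1.52). Within that list miR-142-5p had 1 and 47 reads, a ratio of 46.4 (7.94 to 1872), while miR-451, the red cell miRNA, had 7 and 5. In the vascular list miR-126-5p had 1 and 18 reads, and miR-126-3p of the same hairpin 2 and 3. Whether RNA of other cells has a part in the higher reads of miR-423 and miR-378 was not tested.

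The arms of miR-423 kept nearly the same proportion in both libraries, with the 5p arm dominant. The 3p arm held 16.3% of the miR-423 reads of the control (exact binomial interval 15.1 to 17.7%) and 14.2% of those of the knockdown (13.5 to 14.9%). That is 5.12 and 6.05 reads of the 5p arm for each read of the 3p arm. The difference of -2.17 percentage points (Newcombe interval -3.65 to -0.74) covers counting error, and no second library shows how far this share varies. In the other hairpins with at least 100 reads of each arm over both libraries, the 3p share differed by -2.84 points for miR-30a, -15.2 for miR-30e and 3.73 for miR-151. For miR-378, the 5p arm had 0 reads in both libraries beside 49 and 310 reads of the 3p arm. A count of 0 allows up to 3 reads, or 0.253 and 0.250 RPM.

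Reads shorter than the main length made up more of each arm in the knockdown library, though not at every length. For miR-423-5p, reads of 23 nt were 46.6% of the arm in control oocytes (44.7 to 48.5%) and 36.0% after knockdown (35.0 to 37.1%). Reads of 21 or 22 nt were 38.5% (36.7 to 40.4%) and 57.4% (56.3 to 58.5%), and reads of 24 to 26 nt were 8.50% and 1.49%. Reads of up to 20 nt went the other way from the 21- and 22-nt reads, with 6.39% (5.50 to 7.38%) and 5.08% (4.61 to 5.57%). The longest reads of miR-423-5p were thus fewer in the knockdown library although the arm as a whole was more abundant there. Their count was 230 against 122.

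For miR-423-3p, 23 nt was also the main length, at 61.4% (57.1 to 65.6%) and 55.7% (53.0 to 58.3%). Reads of up to 20 nt went from 9 of 529 to 311 of 1354, or from 1.70% (0.781 to 3.20%) to 23.0% (20.7 to 25.3%). This is a second peak that the control library lacks. Reads of 21 nt between the peaks were rare in both libraries, with 10 and 9 reads. For miR-378-3p, 22 nt was the main length, at 75.5% (61.1 to 86.7%) and 64.8% (59.2 to 70.2%), and 21 nt went from 3 to 59 reads. With 49 control reads the 22-nt shares of miR-378-3p do not differ beyond counting error, the difference being -10.7 points (-22.0 to 3.85).

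**Figure D3:**
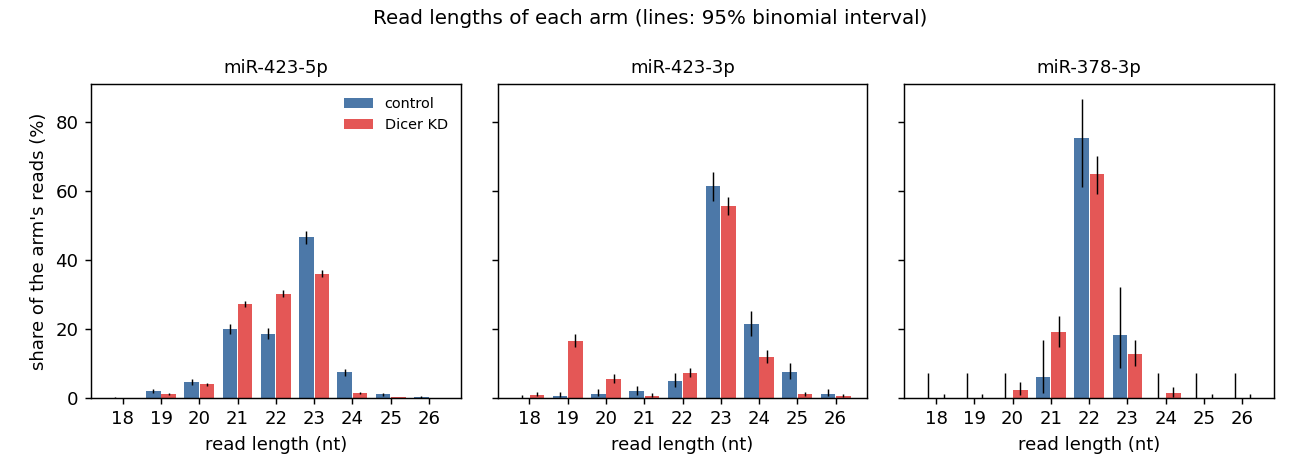
Share of each arm's reads (vertical, percent) at each read length (horizontal, nt) in the control and the Dicer KD library, with 95% binomial intervals as lines. The knockdown bars of miR-423-5p are higher at 21 and 22 nt and lower at 23 and 24 nt, and those of miR-423-3p form a second group at 19 and 20 nt, where the control library had 9 reads.

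The shortened sequences that carry these shifts are printed next. Each matches the full-length read of its arm up to its last base, without any added base.
miR-423-5p, 22 nt: tgaggggcagagagcgagactt
miR-423-5p, 21 nt: tgaggggcagagagcgagact
miR-423-3p, 19 nt: agctcggtctgaggcccct
miR-423-3p, 20 nt, with 1 more base at the 5' end: aagctcggtctgaggcccct
miR-378-3p, 21 nt: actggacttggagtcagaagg

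The 22-nt form of miR-423-5p lacks the last T of the run at its 3' end. It went from 488 reads to 2451, a ratio of 4.96 (4.50 to 5.48). The 21-nt form had 494 and 2189 reads, a ratio of 4.38 (3.97 to 4.84). The 23-nt form had 1216 and 2915 reads, a ratio of 2.37 (2.21 to 2.53), the lowest of the 3 forms. A form of 20 nt, 1 base shorter still, had 87 and 302 reads, a ratio of 3.43. In the knockdown library the 22-nt form came close to the full-length form, whereas in the control library it was well below it.

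Both short forms of miR-423-3p end at the same base, the T at position 19. The 19-nt form went from 3 reads to 196, a ratio of 64.5 (21.8 to 316), and was the second most abundant sequence of this arm. The 20-nt form, shifted by 1 base at its start, had 5 and 72 reads, a ratio of 14.2 (5.82 to 45.1). Over all starts, reads that end at position 19 numbered 8 and 268, and reads that end at position 18 numbered 0 and 40. Reads that end at position 21 numbered 7 and 3. The full-length form, with 234 and 651 reads, differed much less, with a ratio of 2.75 (2.36 to 3.21). A form of 22 nt, which lacks the last T alone, had 19 and 82 reads, a ratio of 4.26 (2.56 to 7.44). The 21-nt form of miR-378-3p had 2 and 45 reads, a ratio of 22.2 (5.81 to 189), on very few control reads, beside 36 and 186 reads of the full-length form, a ratio of 5.10 (3.56 to 7.51).

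Counted together, reads that stop short of the full length without an added base went from 41.6% to 61.5% of miR-423-5p, from 6.99% to 30.2% of miR-423-3p and from 4.08% to 17.1% of miR-378-3p. Among the 76 entries these gains ranked 6, 4 and 10 from the largest. The larger gains were those of miR-99b, miR-99a and miR-92b for both miR-423 arms, and miR-320a also exceeded miR-423-5p. Over the other 73 entries the median change was 1.77 points, with 45 higher and 26 lower. An entry whose most abundant read is itself short cannot show its shortening by this rule. The read that defines the entry of miR-103 and miR-107 has 18 nt. Reads with that end went from 3.59% to 55.4% of the entry and counted as full-length. The ranks and the median above leave such changes out. In the 5 other entries with at least 60% G and C the median gain of shortened reads was 14.6 points, against 1.77 in the 21 with 50 to 60%. It was 0.908 in the 35 with 40 to 50% and 1.60 in the 12 below 40%. miR-423-3p belongs to the first of these classes, and miR-423-5p and miR-378-3p to the second. The part of base composition in the shift of the members was not tested.

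Reads with added bases were fewer on miR-423-5p after knockdown, nearly equal in number on miR-423-3p and more numerous on miR-378-3p. The end forms printed next show them, with capitals for the bases that do not follow the full-length read of the arm. The 2 forms of miR-423-5p with added A were chosen after their values had been seen.
miR-423-5p with an added T: tgaggggcagagagcgagactttT
miR-423-5p cut and with 1 added A: tgaggggcagagagcgagaA
miR-423-5p cut and with more added A: tgaggggcagagagcgagaAA
miR-423-3p with its last T replaced by A: agctcggtctgaggcccctcagA
miR-423-3p with an added A: agctcggtctgaggcccctcagtA
miR-378-3p with an added A: actggacttggagtcagaaggcA
miR-378-3p with an added T: actggacttggagtcagaaggcT

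Without the hairpin sequence, a base after the full-length end can be encoded or added later. A single final T is also the first base of the 3' adapter, which was still present in 3 control and 2 knockdown reads of miR-423-5p longer than 26 nt, so an added T and an untrimmed adapter base cannot be told apart. A final A after a cut is neither the encoded base nor the adapter base, although it can be a sequencing error.

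Reads of miR-423-5p that end in added A numbered 128 in control oocytes and 68 after knockdown, 1.91-fold lower (1.41 to 2.60). Their share of the arm was 4.73% (3.96 to 5.60%) and 0.830% (0.645 to 1.05%). Most of them, 65 and 36 reads, carry the A after position 19. The printed forms with 1 and with more added A had 29 control reads each, against 20 and 10 knockdown reads. Reads with added T went from 196 to 104, or 1.91-fold lower (1.50 to 2.44), and the form with 1 added T held 184 and 93 of them. Reads of miR-423-5p without any added base were 3.36-fold higher (3.20 to 3.51). So within 1 arm the reads with added A were fewer and the reads without any added base more numerous in the knockdown library. The reads with a final T were also fewer, but that T cannot be told from an encoded or an adapter base.

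Added A was common on miR-423-3p, at 29.3% of the control reads (25.5 to 33.4%) and 10.8% of the knockdown reads (9.18 to 12.6%). The number of such reads was nearly the same, 155 and 146, with a ratio of 0.930 (0.737 to 1.17). The form that ends in A in place of T had 73 and 71 reads, and the form with an A after the full-length end 32 and 37. All reads of this arm with any added base numbered 219 and 218, while those without one went from 310 to 1136, a ratio of 3.62 (3.19 to 4.12). The higher level of miR-423-3p in the knockdown library was thus held by its reads without added bases. Those with any added base, of whatever origin, stayed at 18.5 and 18.2 RPM.

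For miR-378-3p the counts are small. Added A was on 6 of 49 control reads and 10 of 310 knockdown reads, or 12.2% (4.63 to 24.8%) and 3.23% (1.56 to 5.85%). Reads with added T numbered 4 and 41, a ratio of 10.1 (3.67 to 38.9), whereas this tail was lower on miR-423-5p. The printed form with an added T had 4 and 30 reads, and that with an added A 5 and 7. Reads with any added base were 20.4% and 18.7% of miR-378-3p, a difference within counting error.

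**Figure D4:**
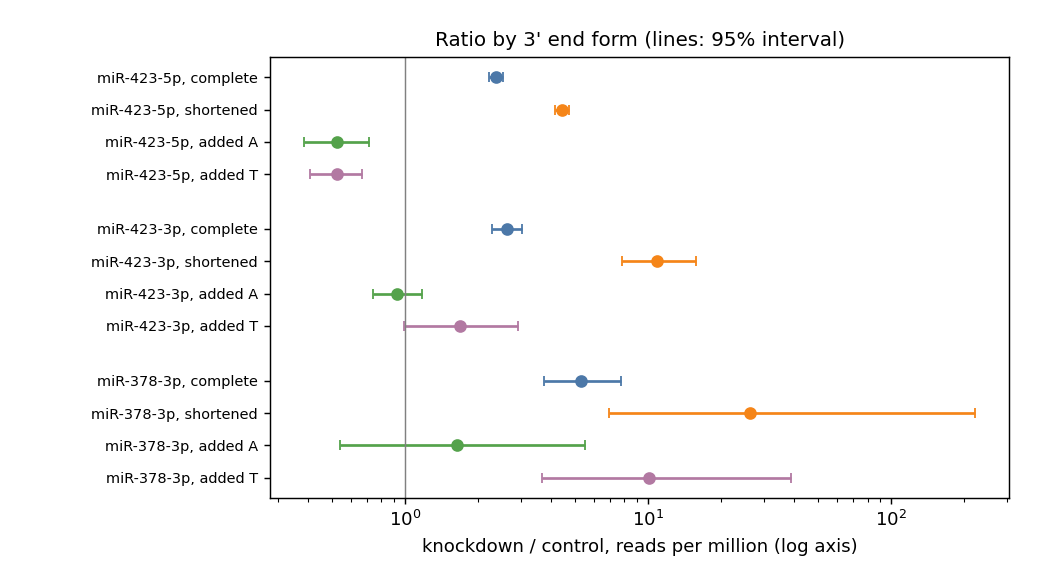
Ratio of knockdown to control in RPM (horizontal, log axis) for 4 kinds of 3' end in each arm, with 95% exact conditional intervals as lines and a vertical line at a ratio of 1. Shortened reads have the highest ratio in each arm. Reads ending in added A lie below 1 for miR-423-5p, at 0.525, and at 0.930 for miR-423-3p with an interval that holds 1.

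Set beside the other miRNAs, the fall in the share of added A was large for these arms. The number of such reads fell on miR-423-5p, from 128 to 68. It was 155 and 146 on miR-423-3p and 6 and 10 on miR-378-3p, whose share thus rests on few control reads. Among the 76 entries the fall in share ranked 3 for miR-423-3p (-18.5 points), 7 for miR-378-3p (-9.02) and 12 for miR-423-5p (-3.90). Larger falls in share than that of miR-423-3p were those of miR-486, from 29.8% to 8.05%, and miR-92b, from 36.8% to 15.9%. Over the other 73 entries the share was lower in 45 and higher in 26, with a median change of -0.44 points. In the 5 of them with at least 60% G and C the median change was -3.87 points. It was -1.09 in the 21 with 50 to 60%, -0.08 in the 35 with 40 to 50% and 0.14 in the 12 below 40%. The part of base composition in the fall of this share was not tested. The summed reads of the 73 entries with added A had a ratio of 0.958 (0.938 to 0.977) and those without added bases 1.008 (1.005 to 1.012). These sums mostly describe miR-10b and miR-182, with 425561 and 219275 of the 772556 control reads. The share of added T fell by 5.97 points on miR-423-5p, rank 4 of 76, while its median change over the other entries was 0.08.

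**Figure D5:**
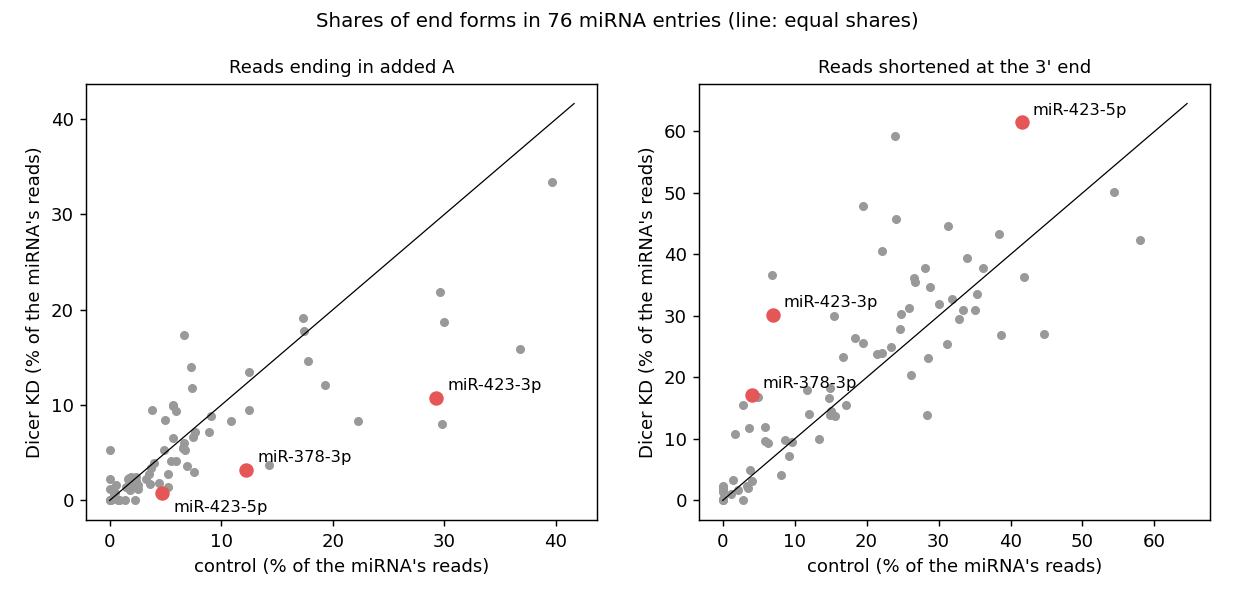
Share of reads ending in added A (left) and of reads shortened at the 3' end (right), in percent of each miRNA's reads, in the control library (horizontal) and the Dicer KD library (vertical). Each point is 1 of 76 miRNA entries and the line marks equal shares. The 3 labelled arms lie below the line on the left and above it on the right.

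The 5' ends were fixed on miR-423-5p and varied on the 3p arms. Of the miR-423-5p reads, 2703 of 2707 and 8194 of 8194 started at the mature 5' end. On miR-423-3p, 100 control and 227 knockdown reads started 1 base earlier, or 18.9% (15.7 to 22.5%) and 16.8% (14.8 to 18.9%), so that about the same part of the arm carried the shifted seed in both libraries. The full-length shifted form had 39 and 71 reads, a ratio of 1.80 (1.20 to 2.73). With reads that lack the first base added, 18.9% and 17.4% of miR-423-3p were shifted, which ranked 5 and 4 among the 76 entries. On miR-378-3p, 1 of 49 control reads and 26 of 310 knockdown reads lacked the first base, or 2.04% (0.0517 to 10.9%) and 8.39% (5.55 to 12.05%). These intervals overlap, and the printed 21-nt form without the first base had 1 and 13 reads.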

How the data were processed

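Per the labels' protocols, adapters were ligated to small RNA, which was reverse transcribed, PCR amplified and read by Illumina sequencing. For each library the authors deposited a table of distinct sequences, each with its length and its raw count of reads. The submitters' processing notes name Bowtie2. Its role, the build and the trimming settings are not given in the sources used here.

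No miRNA reference or hairpin sequence was used. Stretches of nt 2 to 18 of 217 conserved mature miRNAs, which make 207 entries after shared stretches are merged, were written from background knowledge as search keys. Every printed sequence was read from the deposited tables. The full-length read of an entry is its most abundant read that starts at the mature 5' end. A read was split into the part that follows it and any added bases.

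Counts were scaled to all reads of the library. Shares have exact binomial intervals, ratios exact conditional ones and differences of shares Newcombe ones, at 95%. A count of 0 was kept as 0 in sums, shares and intervals. It was taken as 3 reads only as an upper limit and for the ratio of the miR-378-3p mismatch reads. Entries needed 100 reads in both libraries together and a 2-fold ratio to be counted as different. The matching and the intervals were tested on simulated data. The members and lists were chosen with earlier results of these data known. Named sequences were the 5 most abundant of each arm and those with at least 20 reads whose share of the arm differed most, 2 in each direction. Other miRNAs were named as the 3 nearest in ratio and from fixed lists. miR-99b, miR-92b, miR-320a, miR-486, miR-100, miR-10b, miR-182, miR-30a, miR-30e and miR-151 were chosen after their values had been seen. They came from rankings of shares, ratios and read counts and from the other hairpins with both arms read. Python 3.11.15, numpy 2.4.6, scipy 1.17.1 and matplotlib 3.10.9 were used.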

Additional observations from a re-analysis of the deposited data

Results flagged for a closer look

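Reads with 1 mismatch in nt 2 to 18, which the counts above leave out, were above the control level for all 3 arms. Those of miR-423-5p numbered 20 and 56, control before knockdown, a ratio of 2.77 (1.63 to 4.87). Those of miR-423-3p numbered 2 and 10, a ratio of 4.94 (1.05 to 46.4). Those of miR-378-3p numbered 0 and 6. With the control set at 3 reads, its floor, their ratio was 1.98. The exact interval from the counts themselves starts at 1.16. On miR-423-5p these reads were 0.739% and 0.683% of the exact ones, and on miR-423-3p 0.378% and 0.739%. The commonest mismatch, G18A on miR-423-5p with positions counted from 1 at the mature 5' end, had 6 and 11 reads. Reads longer than 26 nt that hold the matched stretch numbered 9 and 12 for miR-423-5p, 7 and 3 for miR-423-3p and 1 and 0 for miR-378-3p.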

How the results depend on the processing

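All 3 log2 ratios stayed above 0 in the 36 alternatives run, and 28 of these values stayed within the counting interval of the reported one. Relative to the reference-miRNA list, miR-423-5p fell to 1.32 from 1.58 and miR-423-3p to 1.08 from 1.34. Without miR-103 and miR-107 in that list, a setting chosen after seeing the data like the next 2, miR-423-5p was at 1.66. Reads without added bases gave 1.75 for miR-423-5p and 1.86 for miR-423-3p, and complete reads alone 1.25 for miR-423-5p. miR-423-3p was at 0.999 with nt 2 to 20 matched, where it no longer passed the 2-fold rule, and at 1.17 with reads of 20 to 24 nt, settings that by construction drop its reads of 18 or 19 nt or that end at position 18 or 19. For the same reason its 23-nt share, lower by 5.75 points as reported, turned to 9.66 and 1.02 points higher in these settings. Its share of reads with the full-length 3' end went from 2.09 points to 16.9 and 9.40. The 3p share of miR-423 differed by -5.17 points with nt 2 to 20 matched. The other 30 share values kept their direction. The number of miRNAs past 2-fold was 19 of 76, and 11 of 41 with at least 500 reads. The 49 control reads of miR-378-3p limit what its forms can show. No paired analysis was possible because each group has 1 library, and for the same reason no library could be left out.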
